A study of Mus musculus with 14 samples.

Results

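Of 10 germline genes listed for their CpG-rich promoters, 8 had no H3K4me3 peak within 1 kb of any transcription start site (TSS) in mouse fibroblasts. Such a peak was present in 59.1% of protein-coding genes and in 92.9% of those with promoters of high CpG content. By CpG islands the description as CpG-rich held for 9 of the 10, against 54.6% of coding promoters. With stricter island limits it held for 4, against 36.4%. Piwil2, 1 of the 8, had fewer CpGs than the median coding promoter. The genes were Dazl, Ddx4, Mael, Sycp1, Sycp3, Hormad1, Stag3, Tdrd1, Piwil2 and Stk31, 10 of the 21938 protein-coding genes annotated on chromosomes 1 to 19, X and Y. They were listed by name as germ cell genes whose promoters are known to be DNA-methylated in somatic cells. They were thus picked from knowledge that bears on H3K4me3 and with earlier results of these data known, and are no random draw of germline genes. All 10 had an annotated TSS. A gene was counted as marked when any base of a listed peak lay within 1 kb of one of its TSSs.

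H3K4me3, the trimethylated form of histone H3 at lysine 4, was mapped by ChIP-seq in a line of immortalised fibroblasts from mouse embryos (iMEFs). In all groups, exon 4 of the endogenous Ash2l gene had been deleted by a tamoxifen-activated Cre-ER recombinase, and the cells lived on a lentivirally expressed FKBP-HA2-ASH2L fusion protein with the F36V mutation in FKBP. The compound dTAG-13 connects this fusion to the E3 ligase subunit Cereblon and so leads to its degradation. The 12 H3K4me3 libraries fall into 6 groups of 2, which are untreated cells and cells exposed to dTAG for 30 min, 2 h, 4 h, 8 h or 16 h, and there are 2 input libraries, 1 of untreated cells and 1 of cells treated for 16 h. The study names 1 clone, NG3, for its ChIP-seq, so differences between clones cannot be seen here. The files used here list positions: 25431 H3K4me3 peaks, pooled over the libraries, and 32965 putative enhancers, which were defined in control cells. They hold no value per library, so nothing below has a replicate error, no time point can be compared with another, and the depth of each library is unknown. A gene without a listed peak may carry H3K4me3 below the threshold of the peak caller.

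ASH2L is a core subunit of the KMT2 (MLL/SET1) complexes, which place H3K4me3 at promoters. In most tissues, CpG-rich promoters carry this mark whether the gene is strongly or weakly expressed, because CXXC-domain proteins of these complexes bind CpGs that are not methylated. Germline genes are a known exception. Many of them have CpG-rich promoters that become methylated at the DNA level in somatic cells, after binding of the Polycomb complex PRC1.6 through MGA-MAX at E-boxes and E2F6 at E2F sites. DNA methylation was not measured in the files used here, and its part in the results was not tested.

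The cells were first checked against cell type markers. Promoter peaks were found at 10 of 10 fibroblast markers, which included Col1a1, Col1a2, Pdgfra, Thy1, Prrx1 and Twist1. They were found at 0 of 3 blood markers and at 0 of 4 markers of pluripotent or early germ cells, Pou5f1, Nanog, Dppa3 and Prdm14. None of these unmarked genes was of the high CpG class defined below. Over coding genes, 59.7% of the intermediate and 11.5% of the low class had a peak, so these absences say little on their own. Of the fibroblast markers, 1 was of the high class, 6 of the intermediate and 3 of the low. Of the 4 epithelial markers, Epcam and Cdh1 had a peak and Krt8 and Krt18 did not. Tek was the only endothelial marker of 3 with a peak.

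The sequences at issue are shown first. These are the 200 bases before the most upstream TSS, taken from the mm10 (GRCm38.p6) genome, written 5′ to 3′ in the direction of transcription and with each CpG in capitals. Dazl and Stag3 are the genes with a peak within 1 kb, Sycp1, Mael, Sycp3 and Ddx4 have none, and Ddx3x is a ubiquitous relative of Ddx4 whose TSS lies in a peak.
Dazl (chr17:50293637-50293836, minus strand): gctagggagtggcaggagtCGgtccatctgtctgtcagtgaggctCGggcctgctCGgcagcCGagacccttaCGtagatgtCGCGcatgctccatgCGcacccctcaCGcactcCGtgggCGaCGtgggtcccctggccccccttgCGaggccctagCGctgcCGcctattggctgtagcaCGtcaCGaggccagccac
Stag3 (chr5:138280040-138280239, plus strand): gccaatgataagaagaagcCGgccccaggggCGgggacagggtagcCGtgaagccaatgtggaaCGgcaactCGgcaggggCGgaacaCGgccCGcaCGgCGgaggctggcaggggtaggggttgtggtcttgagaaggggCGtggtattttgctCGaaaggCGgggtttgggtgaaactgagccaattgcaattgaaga
Sycp1 (chr3:102936101-102936300, minus strand): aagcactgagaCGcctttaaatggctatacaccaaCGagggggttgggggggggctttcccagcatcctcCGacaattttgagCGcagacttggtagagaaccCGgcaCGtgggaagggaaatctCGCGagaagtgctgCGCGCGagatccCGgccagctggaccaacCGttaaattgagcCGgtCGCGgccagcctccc
Mael (chr1:166238748-166238947, minus strand): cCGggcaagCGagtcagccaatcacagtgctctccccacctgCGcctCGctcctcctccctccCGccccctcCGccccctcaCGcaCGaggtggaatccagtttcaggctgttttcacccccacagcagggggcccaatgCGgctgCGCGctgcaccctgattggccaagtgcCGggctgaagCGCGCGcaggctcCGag
Sycp3 (chr10:88459369-88459568, plus strand): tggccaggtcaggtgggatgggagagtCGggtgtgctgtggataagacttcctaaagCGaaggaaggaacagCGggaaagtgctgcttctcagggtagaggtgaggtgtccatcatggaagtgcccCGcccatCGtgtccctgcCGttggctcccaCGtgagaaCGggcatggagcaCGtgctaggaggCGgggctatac
Ddx4 (chr13:112652476-112652675, minus strand): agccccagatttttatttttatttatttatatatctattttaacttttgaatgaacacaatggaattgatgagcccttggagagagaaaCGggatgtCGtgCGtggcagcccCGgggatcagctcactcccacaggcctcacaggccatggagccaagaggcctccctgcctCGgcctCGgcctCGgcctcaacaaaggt
Ddx3x (chrX:13280770-13280969, plus strand): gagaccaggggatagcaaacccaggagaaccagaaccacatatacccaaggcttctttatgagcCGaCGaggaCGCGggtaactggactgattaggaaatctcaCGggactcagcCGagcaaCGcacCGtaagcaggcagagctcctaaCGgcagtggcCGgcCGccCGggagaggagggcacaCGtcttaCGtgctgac
The window of Sycp1 held 16 CpGs, that of Mael 16, that of Sycp3 10 and that of Ddx4 7, while the window of Ddx3x, next to a marked TSS, held 14. The windows of Dazl and Stag3 held 17 and 13 CpGs. The CpG numbers of the unmarked promoters thus lay on both sides of that of the marked Ddx3x. The ratio of observed to expected CpGs was 0.89 for Sycp1, 0.71 for Mael and 0.60 for Sycp3, and 0.55 for Ddx4, against 0.81 for Ddx3x. The Ddx4 window ends at its upstream TSS (112652475), whereas the chosen TSS (112652301), around which its CpGs are densest, lies farther downstream.

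To ask how CpG-rich the promoters are, GC content, CpG number and the ratio of observed to expected CpGs were computed over 500 bp on either side of 1 TSS per gene. The median ratio of the 10 genes was 0.71, with a range from 0.44 to 0.76 and an SD over genes of 0.0926. Over 21853 protein-coding promoters the median was 0.57, with quartiles of 0.22 and 0.78, and it was 0.74 for genes with a promoter peak and 0.20 for genes without. The median of the germline genes was thus closer to that of the marked genes than to that of the unmarked ones. Most of the germline genes still lay below the median of the marked genes, and only Stag3 (0.76) and Ddx4 (0.75) were above it. The median number of CpGs in the 10 genes was 60, against 64 in promoters with a peak and 11 in those without.

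Individual genes differed in CpG content. The highest ratio was that of Stag3, a meiosis-specific cohesin subunit, with 66 CpGs and a ratio of 0.76. Ddx4, the germ cell DEAD-box helicase also known as Vasa, had the most CpGs (78) and the highest GC content (64.3%), with a ratio of 0.75. Dazl, an RNA-binding protein needed for germ cell development, had 70 CpGs and a ratio of 0.73. Values near these were found for Stk31, a kinase-like protein with a Tudor domain, with 59 CpGs and a ratio of 0.73. Sycp1, the transverse filament of the synaptonemal complex, had 65 CpGs and a ratio of 0.72. Ratios just below were those of Hormad1, a protein of unsynapsed chromosome axes (47 CpGs, 0.69), and of Mael, a piRNA pathway protein (61 CpGs, 0.69). Tdrd1, a Tudor protein of germ granules, had 54 CpGs and a ratio of 0.67, and Sycp3, an axial element protein, had 46 CpGs and a ratio of 0.65. Piwil2, a PIWI-clade Argonaute that binds piRNAs, stood apart with 36 CpGs and a ratio of 0.44.

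By sliding windows of 500 bp, 8 of the 10 promoters fell into the high CpG class, against 47.4% of all coding promoters. A promoter was put in this class when any window between 1000 bp before and 500 bp after the TSS had a ratio over 0.75 and a GC content over 55%. Sycp3 and Piwil2 were of the intermediate class, and 0 were of the low class. A CpG island lay within 1 kb of the TSS in 9 of 10 genes, against 54.6% of coding promoters. The exception was Piwil2. With stricter limits (over 500 bp, GC over 55%, ratio over 0.65), islands were left at Dazl, Ddx4, Sycp1 and Stag3, 4 of 10 against 36.4% of coding promoters, so the count depends on the definition. The longest island was that of Dazl (1107 bp with 107 CpGs) and the shortest that of Hormad1 (202 bp with 20 CpGs).

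**Figure D1:**
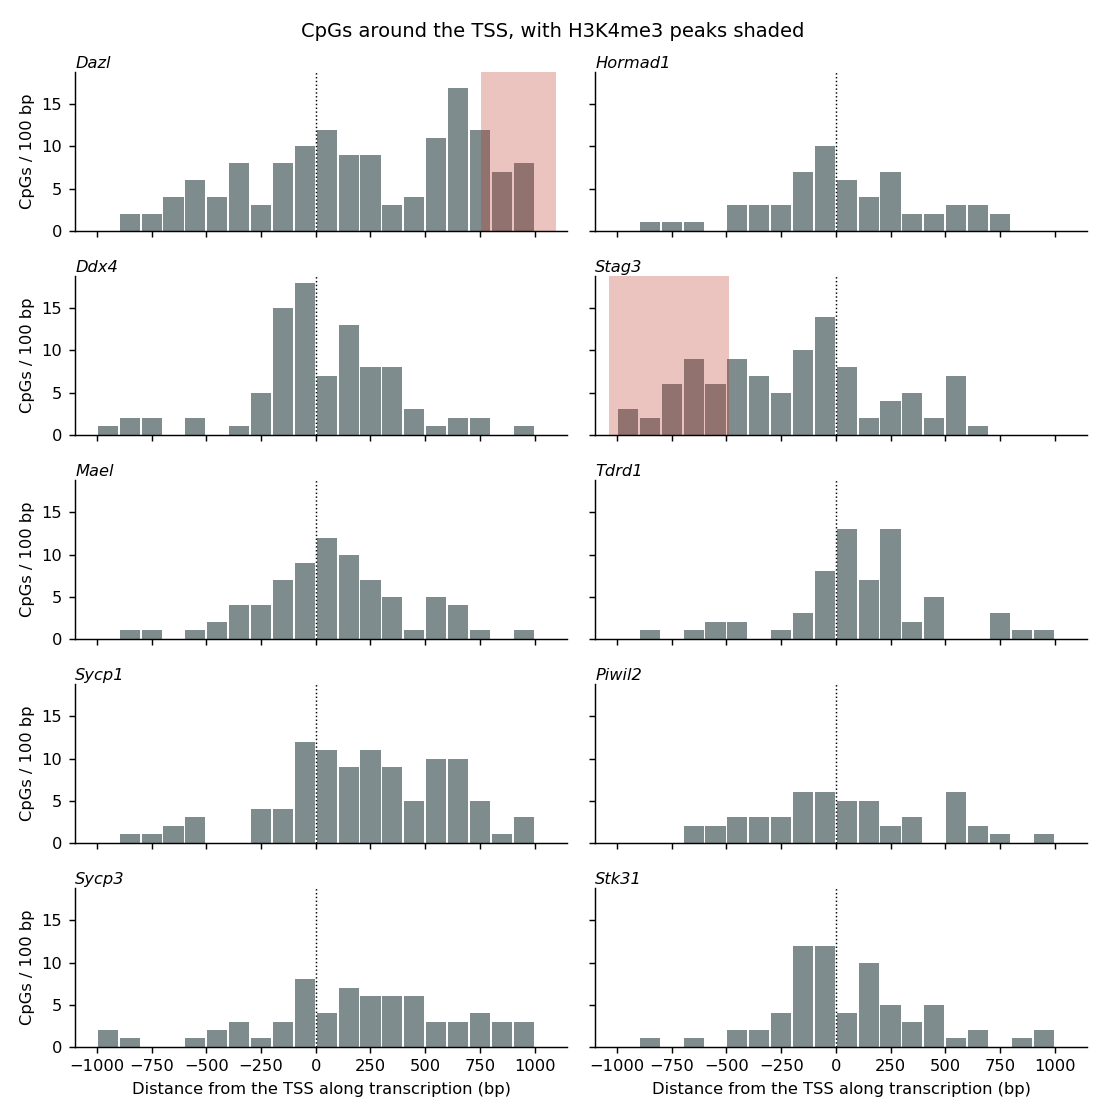
Number of CpGs per 100 bp (bars) against the distance from the TSS along transcription, in bp, for each of the 10 genes, with H3K4me3 peaks shaded. CpGs are densest near the TSS in most genes. The peaks of Dazl (755 to 1109 bp downstream) and Stag3 (positions -1035 to -489) lie beside the TSS and do not contain it.

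The distribution of CpGs along the promoters is shown in the plot of CpGs per 100 bp. In Ddx4, the 100 bp just before the TSS held 18 CpGs, the highest number in any such interval of the 10 genes. In Dazl the maximum of 17 CpGs lay 600 to 699 bp downstream of the TSS, next to the interval in which its peak begins.

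Regarding H3K4me3, Dazl and Stag3 had a promoter peak (2 of 10), whereas 59.1% of protein-coding genes did (12966 of 21938). None of the 10 chosen TSSs lay inside a peak (0 of 10), against 45.7% of 21853 coding genes. Among the 12911 coding genes with a promoter peak, this TSS was inside a peak in 77.3%. Dazl and Stag3 belonged to the remainder, marked genes whose chosen TSS was outside the peak. No test was run, because the lists give neither replicates nor counts.

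The peak of Dazl was at chr17:50292527-50292881 and was 355 bp wide. It lay 755 to 1109 bp downstream of the TSS at position 50293636, inside the Dazl gene, which is transcribed from the minus strand. An alternative TSS of Dazl, at 50292892, was 11 bp from its edge. The peak covered 61 bp of the untranslated first exon of this alternative transcript and was otherwise intronic. It held 23 CpGs with a ratio of 0.86 and a GC content of 57.2%, and 14.1% of its bases were repeats. It overlapped 197 bp of the CpG island, which extends from 50292685 to 50293791 and so reaches over the main TSS. No other gene had a TSS within 1 kb. The intronic part is printed below, with CpGs in capitals, because it is the marked sequence closest to Dazl.
Dazl peak, intronic part (chr17:50292527-50292820, minus strand): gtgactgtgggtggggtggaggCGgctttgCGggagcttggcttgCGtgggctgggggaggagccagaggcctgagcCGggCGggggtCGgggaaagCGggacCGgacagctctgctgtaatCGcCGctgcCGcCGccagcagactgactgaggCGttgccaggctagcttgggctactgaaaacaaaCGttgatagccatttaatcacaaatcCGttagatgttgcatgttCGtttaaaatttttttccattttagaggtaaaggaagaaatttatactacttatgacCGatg
It held 17 CpGs in 294 bases, a ratio of 0.85, against 17 CpGs in the 200 bases before the main TSS (ratio 0.75), which had no peak.

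The peak of Stag3 was at chr5:138279491-138280037 and was 547 bp wide. It ended 489 bp upstream of the chosen Stag3 TSS (138280526) and 203 bp from the most upstream one (138280240). Stag3 is transcribed from the plus strand and Gpc2, which encodes the proteoglycan glypican-2, from the minus strand in the opposite direction. The peak contained TSSs of Gpc2 and of the gene model Gm43720, and covered 166 bp of coding sequence in the first exon of Gpc2. With a shared promoter region, the peak cannot be given to Stag3 rather than to Gpc2. It held 29 CpGs with a ratio of 0.63 and overlapped 165 bp of the 710 bp CpG island at the Stag3 TSS. The Stag3 window printed above begins just past the end of this peak.

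Both peaks were narrow. The widest promoter peak of coding genes with a peak had a median width of 1255 bp, and it was no wider than that of Dazl in 2.64% and no wider than that of Stag3 in 7.03% of 12911 genes. Of both peaks, that of Dazl alone lacked a TSS of another gene within 1 kb. With such unshared peaks, 1 of 10 germline genes was marked, against 40.7% of coding genes.

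For the remaining 8 genes, the nearest peak was measured from the chosen TSS. It was closest in Tdrd1, at 3.37 kb upstream, a 440 bp peak at the promoter of the neighbouring gene Ccdc186. In Ddx4 it was 7.96 kb upstream, a 1186 bp peak at Slc38a9, which encodes a lysosomal amino acid sensor. In Piwil2 it was 12.9 kb upstream, a 250 bp peak at Polr3d, an RNA polymerase III subunit. These 3 genes were the only ones of the 8 with a peak within 25 kb.

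Greater distances were found for the other genes. The nearest peak of Stk31 was 27.01 kb upstream, at Fam221a, and that of Hormad1 was 29.2 kb downstream, at Golph3l and Gm42671. It was 43.5 kb downstream for Sycp3, at the phospholipid synthesis gene Chpt1, and 59.6 kb upstream for Sycp1, at Sike1. The most distant was that of Mael, 77.1 kb upstream, a peak of the shortest width in the list (200 bp) with no TSS within 1 kb. In 7 of the 8 genes, the nearest peak was thus a promoter peak of a neighbouring gene. This share was not computed for other genes, and the study places most of its H3K4me3 peaks near TSSs. The median distance was 28.1 kb, against 63.4 kb over coding genes without a promoter peak and 53.2 kb over those of the high CpG class. The median of the 8 genes was thus below both of these. In 5 of the 8, Stk31, Hormad1, Sycp3, Sycp1 and Mael, the nearest peak was over 25 kb away, against 70.2% of the 735 unmarked genes of the high CpG class. Sycp3 and Piwil2, among the 8, are of the intermediate class. Over the whole high class this share was 5.04%, but that set includes marked genes and so is unlike the 8.

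**Figure D2:**
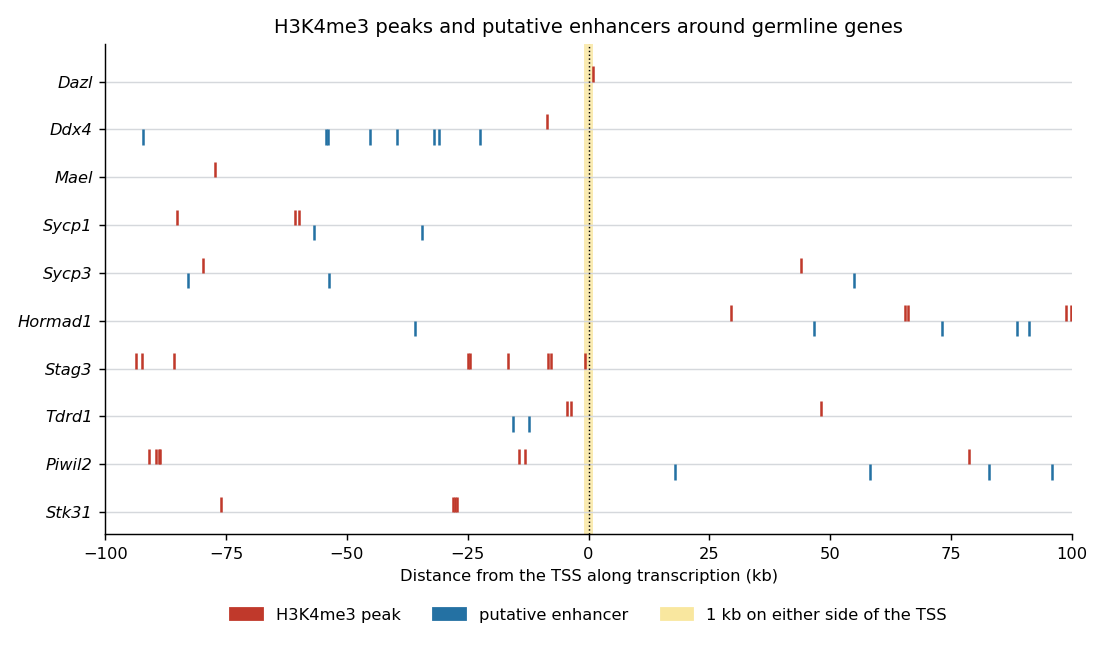
H3K4me3 peaks (red) and putative enhancers (blue) within 100 kb of the TSS of each gene, against the distance from the TSS along transcription in kb, with the 1 kb on either side of the TSS shaded. Marks show centres and are not drawn to width. Only Dazl and Stag3 have a peak in or at the shaded window, and Dazl, Mael, Stag3 and Stk31 have no enhancer in the 100 kb shown.

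The length of sequence without any peak around each TSS was taken from the nearest peak on one side to the nearest on the other. It was longest for Stk31 (640.6 kb), followed by Mael (267.0 kb), Sycp1 (259.7 kb) and Dazl (215.8 kb). It was shortest for Tdrd1 (51.1 kb) and Piwil2 (90.2 kb). As seen in the map of peaks and enhancers, the Stag3 region was crowded on its upstream side, with 9 peaks within 100 kb. No peak lay within 100 kb downstream. Neither the spans nor these peak numbers are compared with other coding genes here, so they do not set the germline genes apart.

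To set these counts against the CpG content, the share of marked genes was computed for all coding genes by CpG class. It was 92.9% in the high class (9632 of 10367), 59.7% in the intermediate class and 11.5% in the low class. The chosen TSS was inside a peak in 77.1%, 43.6% and 2.93% of these classes, and in 0 of the 10 germline genes. Of the 8 germline genes of the high class, 2 were marked, and of the 2 of the intermediate class, 0. Unmarked promoters of the high class numbered 735 (7.09%), and Ddx4, Mael, Sycp1, Hormad1, Tdrd1 and Stk31 were among them. With a CpG island within 1 kb, 90.4% of coding genes and 2 of 9 germline genes had a peak. Without one, the share was 21.3%, and Piwil2, the only germline gene without an island, had no peak.

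The same was seen by the CpG ratio itself. Between 0.6 and 0.7, 87.3% of coding genes were marked (95% Wilson interval 85.9 to 88.5, for counting error only), but 0 of the 4 germline genes there (Mael, Sycp3, Hormad1 and Tdrd1). Between 0.7 and 0.8 the share was 93.5% (92.6 to 94.3), against 2 of 5 germline genes (Dazl, Ddx4, Sycp1, Stag3 and Stk31). Piwil2 fell between 0.4 and 0.5, where 54.8% were marked (52.2 to 57.5).

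**Figure D3:**
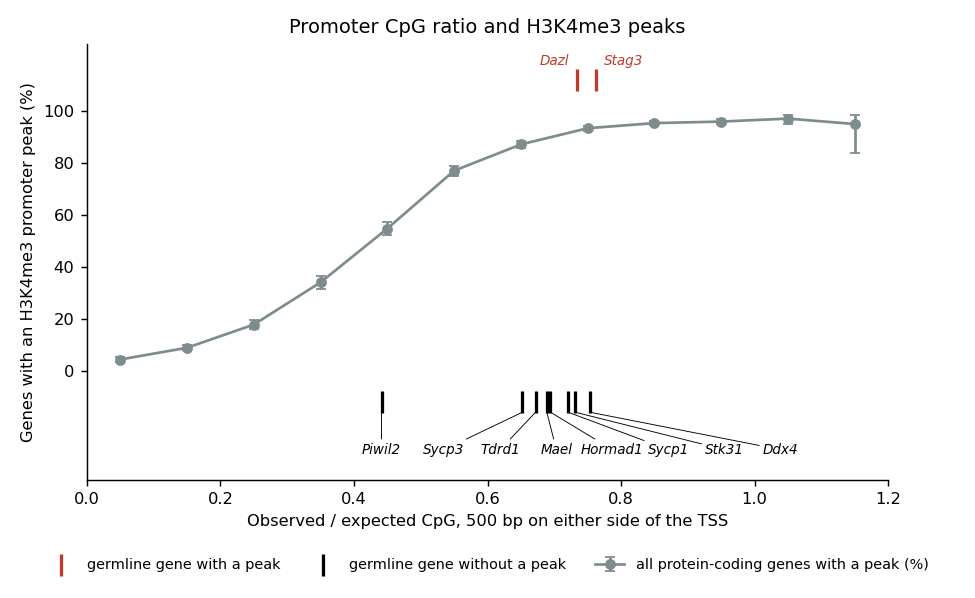
Percent of protein-coding genes with an H3K4me3 promoter peak (points, with 95% Wilson intervals) against the ratio of observed to expected CpGs, in steps of 0.1. Vertical ticks give the ratio of each germline gene, above the curve for those with a peak (Dazl and Stag3) and below it for those without; their height has no scale. Except for Piwil2, the unmarked genes sit at ratios where over 87% of coding genes are marked.

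Because MGA-MAX and E2F6 are known to bind germline promoters, their recognition letters were searched in both strands from 250 bases before to 50 after the chosen TSS. The E-box CACGTG, which reads the same on both strands, was present in 8 of 10 promoters, against 7.77% of all coding promoters and 10.9% of those of the high CpG class. It was not in the windows of Dazl and Piwil2. Both the genes and the motifs were chosen from knowledge of germline promoters, so the contrast with the background is not independent of that choice. Sycp3 and Hormad1 held 2 matches each. All matches are printed with 12 bases on either side, in the direction of transcription and with the E-box in capitals.
Ddx4 (chr13:112652322-112652351, minus strand): ggcgtccgcccgCACGTGcagccgtttaag
Mael (chr1:166238950-166238979, minus strand): taccaggcctacCACGTGacaatccccgcc
Sycp1 (chr3:102936177-102936206, minus strand): tagagaacccggCACGTGggaagggaaatc
Sycp3 (chr10:88459511-88459540, plus strand): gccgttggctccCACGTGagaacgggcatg
Sycp3 (chr10:88459532-88459561, plus strand): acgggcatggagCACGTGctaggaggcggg
Hormad1 (chr3:95559608-95559637, plus strand): caaagggtgcgcCACGTGccagtgacagtt
Hormad1 (chr3:95559645-95559674, plus strand): atgcgcactgcgCACGTGctgaccggagcg
Stag3 (chr5:138280327-138280356, plus strand): cgcgctggagccCACGTGacaggactgcac
Tdrd1 (chr19:56826186-56826215, plus strand): tggggctgcgcgCACGTGggagtaaactgc
Stk31 (chr6:49395472-49395501, plus strand): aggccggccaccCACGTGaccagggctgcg
In 7 of the 8 genes without a peak the E-box was thus present, and Piwil2 was the exception. Of the 2 genes with a peak, Stag3 held it as well. Counted from the TSS, the match of Tdrd1 began at position -11, those of Sycp3 at -46 and -25, and those of Hormad1 at -57 and -20. The farthest was that of Mael, at -223.

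The E2F core GCGGGA or its reverse complement TCCCGC was found in 6 promoters, those of Ddx4, Mael, Sycp1, Sycp3, Hormad1 and Stag3, against 25.4% of all and 42.8% of high CpG promoters. The share in germline genes was thus closer to that of the high CpG class than for the E-box. The same 6 promoters held both motifs, against 2.58% of all promoters and 4.59% of the high class. In the 735 high CpG promoters without a peak, CACGTG was present in 13.2%, the E2F core in 39.3% and both in 6.26%. In the 9632 with a peak these shares were 10.7%, 43.0% and 4.46%. The printed intronic part of the Dazl peak lies outside the searched window and held 2 matches of the E2F core. A match shows that the letters are there and not that a factor is bound.

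Putative enhancers were then counted within 50 kb of any TSS of each gene. Per the study's methods, the authors defined these regions in control cells by the marks H3K4me1 and H3K27ac together with open chromatin (ATAC-seq). At least 1 was found for 5 of 10 germline genes, against 58.7% of coding genes, so the share was close to the background. The 5 genes were Ddx4 (5 enhancers), Hormad1 (2), Tdrd1 (2), Sycp1 (1) and Piwil2 (1). The mean was 1.1 per gene, against 1.83 over coding genes. The median distance to the nearest enhancer was 44.7 kb, against 33.2 kb, and the farthest was that of Stag3 (385.3 kb).

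Most of these enhancers lay in or nearer to other genes. All 5 near Ddx4 were within Slc38a9, between 21.8 and 44.8 kb from the nearest Ddx4 TSS. Both near Tdrd1 were within Ccdc186, and 1 of them (chr19:56813517-56814123) was 0.137 kb from a Ccdc186 TSS. Of the 2 near Hormad1, 1 was in Golph3l and the other was intergenic, 3.10 kb from the protease gene Ctss. The enhancer near Sycp1 (1246 bp, the widest of the 11) was 6.38 kb from the nuclear receptor gene Nr1h5. The region chr14:70411050-70411449 was the only one inside a germline gene, in Piwil2, 17.6 kb from its TSS. None of the 11 overlapped an H3K4me3 peak. The share over all enhancers was not computed. The authors left regions near TSSs out of the enhancer list, so this count does not set the 11 apart.

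Genes of the same pathways were counted in the same manner. Of 34 other meiosis genes, 10 had a promoter peak (29.4%), as did 5 of 15 other piRNA pathway genes (33.3%) and 3 of 25 other germ cell genes (12%). Together these were 18 of 74 (24.3%), with the chosen TSS inside the peak in 6. In the high CpG class the counts were 8 of 20, 5 of 8 and 1 of 4, together 14 of 32 (43.8%), against 92.9% of all coding genes in this class. The share of marked genes was thus below the background in the wider lists as well as in the 10 genes, apart from any test. The CACGTG motif was in 14 of the 74 promoters (18.9%, against 7.77% of coding promoters) and in 6 of the 32 of the high CpG class (18.8%, against 10.9%). These shares lie above the background and below the 8 of 10 of the germline genes described first. In the 74 genes, CACGTG was in 3 of the 18 with a peak and in 11 of the 56 without.

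The marked meiosis genes were the following. Psmc3ip and Mnd1, partners that assist strand exchange, had peaks of 1333 and 530 bp. Msh5 (824 bp) encodes a subunit that stabilises recombination intermediates, Hfm1 (652 bp) a helicase, Meiob (889 bp) a single-strand DNA-binding protein and Mei4 (1024 bp) a factor for double-strand break formation. Prdm9, the H3K4 methyltransferase that sets recombination sites, had a peak of 759 bp, and Zcwpw1, a reader of the marks that PRDM9 places, a peak of 588 bp shared with Mepce. The widest was that of Hsf2bp (2152 bp), which is shared with Rrp1b. In Tex15 (650 bp), the peak was at an alternative TSS, as the chosen one was 29.0 kb from the nearest peak. Among unmarked genes of the high class were the synaptonemal complex genes Sycp2 and Syce2, the cohesin gene Smc1b, the recombinase gene Dmc1 and Spo11, which makes the meiotic double-strand breaks. Partners of marked genes were also unmarked, namely Msh4 (partner of Msh5), Spata22 (of Meiob) and Rec114 (of Mei4).

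Of the piRNA pathway genes, the Tudor genes Tdrd5 (791 bp, shared with 4930518J20Rik), Tdrd7 (944 bp) and Tdrkh (409 bp, shared with 1700040D17Rik and Gm42463) had a peak, as did Pld6 (399 bp), which encodes a mitochondrial nuclease, and Exd1 (633 bp, shared with Chp1). Tdrd6, Tdrd9 and Tdrd12 had none, like Tdrd1, and neither did Piwil1 and Piwil4, like Piwil2. The 5 marked piRNA pathway genes were all of the high CpG class. Of the unmarked ones named, Tdrd9, Tdrd12, Piwil1, Piwil4 and Piwil2 were of the intermediate class, in which 59.7% of coding genes were marked. These genes are thus not matched for CpG content. Of the other germ cell genes, Brdt (980 bp), Nanos3 (978 bp) and Tex14 (784 bp, shared with another gene) had a peak. In Brdt and Nanos3, the nearest peak was 28.2 and 6.75 kb from the chosen TSS, so these peaks belong to alternative TSSs. The widest peaks of the 18 genes had a median width of 787.5 bp, with a range from 399 to 2152 bp. In 6 of the 18, every promoter peak was shared with the TSS of another gene. Sharing is common, as 12966 coding genes had a peak and 8934 had an unshared one, so this does not set the 18 apart.

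The relatives examined that act in somatic cells, a hand-picked list, were all marked (10 of 10), and in 6 of them the chosen TSS was inside a peak. All 10 were of the high CpG class, in which 92.9% of coding genes had a peak, so the count is near that background. Their median CpG ratio, 0.84, was above that of the germline genes, so the comparison is not matched for CpG content. The peak of Ddx3x, a DEAD-box helicase like Ddx4, was 2444 bp wide at a ratio of 0.80, while Ddx4 had none at 0.75. The cohesin genes Stag1 and Stag2 had peaks of up to 1316 and 1116 bp, compared with the 547 bp beside Stag3. Rad21 (1435 bp) and Smc1a (930 bp, shared with Ribc1) encode further cohesin subunits. The Argonaute genes Ago1 (1112 bp, ratio 0.62) and Ago2 (2298 bp, ratio 0.92) were marked and Piwil2 (ratio 0.44) was not. The Tudor domain genes Tdrd3 (1888 bp, ratio 0.92) and Snd1 (873 bp) were marked and Tdrd1 (ratio 0.67) was not. Snd1 and Ddx4 both had a ratio of 0.75, with a TSS in a peak for Snd1 and the nearest peak at 7.96 kb for Ddx4. Mov10 (1676 bp), a relative of the piRNA helicase gene Mov10l1, was marked at a ratio of 0.60, lower than in 9 of the 10 germline genes.

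**Figure D4:**
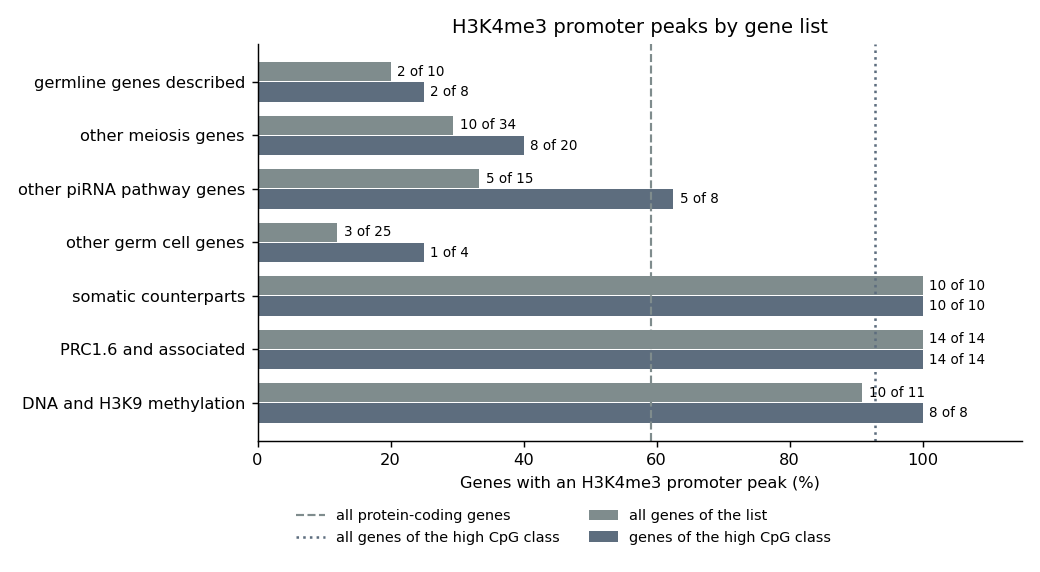
Percent of genes with an H3K4me3 promoter peak by gene list, for all genes of a list (grey) and for those of the high CpG class (blue), with the counts printed at each bar. The dashed line marks all protein-coding genes (59.1%) and the dotted line all genes of the high CpG class (92.9%). The 4 germline lists lie below the line for their class, and the somatic relatives are at 100%.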

How the data were processed

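H3K4me3 ChIP-seq and input libraries were prepared with the OneDay ChIP kit per the labels, whereas the study's methods describe ChIP-IT High Sensitivity. Per the study's methods, the authors trimmed reads with Trim Galore, aligned them with BWA to mm10 (GRCm38.p6), merged replicates with Picard and called narrow peaks with MACS (MACS2, SAMtools, deepTools and DESeq2 in the submitters' processing notes). Versions are not given in the sources used here. Both deposited lists hold positions only. The peak list pools all libraries, and the authors left out 1 kb on either side of TSSs from the enhancer list. By the GENCODE TSSs used here, 30001 of its 32965 regions are over 1 kb from every TSS. A count test over the time course (edgeR) had been planned and could not be run on positions.

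Peak starts were taken to count from 0, since the shortest width is then 200 bp (1394 peaks), and enhancer starts from 1. Positions in the text count from 1. TSSs were those of all transcripts of GENCODE M21. For CpG content, 1 TSS per gene was taken by APPRIS rank, then basic transcripts, then length. Sequences were read from the RefSeq GRCm38.p6 genome. For printed windows, the most upstream GENCODE or curated RefSeq TSS within 500 bp of the chosen one was used. Low CpG promoters had no window with a ratio over 0.48, and windows moved in steps of 5 bp. CpG islands were scored as 17 per CpG and -1 per other base with repeats masked, and kept when over 200 bp with GC over 50% and a ratio over 0.6. They are not the published island track.

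The 10 genes and all lists were chosen with earlier results of these data known. The genes named are the 10 genes, genes sharing or owning their peaks, the somatic relatives, and marked genes of the germline lists. Further unmarked genes (Sycp2, Syce2, Smc1b, Dmc1, Spo11, Msh4, Spata22, Rec114, Tdrd6, Tdrd9, Tdrd12, Piwil1, Piwil4), the regulators and the cell type markers were named in addition. Some further somatic relatives are not reported here, so that list is incomplete. Six6os1 was matched as 4930447C04Rik. Interval functions tested on simulated data differed from brute-force versions in 0 of 3200 queries, and 100 of 100 planted islands were found. Scripts ran under Python 3.11.15 with pandas 2.3.3, NumPy 2.4.6 and SciPy 1.17.1. Islands were called with Numba 0.67.0, and figures were drawn with Matplotlib 3.10.9.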

Additional observations from a re-analysis of the deposited data

How the results depend on the processing

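The number of the 10 genes with a promoter peak was 2 with windows of 500 bp or 2 kb, with 1 TSS per gene, with coding transcripts, with RefSeq TSSs and with the centre of the peak in place of any base, and 3 with 5 kb, which added Tdrd1. It fell to 1 with a window of 200 bp (Dazl), with peaks of at least 500 bp (Stag3) and without peaks shared with another gene (Dazl). It was 0 when the peak had to contain a TSS of the gene, or the chosen TSS, the latter an alternative added after seeing the data. Among coding genes, this share stayed between 55.5% and 61.9%, except 40.7% without shared peaks and 45.7% with the chosen TSS in the peak. The median CpG ratio was 0.60 over 1 kb on either side, and otherwise between 0.63 and 0.75. With the stricter islands, 4 genes had an island (36.4% of coding promoters), against 9 or 10 with the other rules. An enhancer lay within 25 kb of 3 genes, against 43.3% of coding genes, and within 100 kb of 6, against 73.8%. Without enhancers near any GENCODE TSS, the number stayed at 5 and the median distance at 44.7 kb.

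No paired analysis was possible because libraries have no values of their own in these files, and for the same reason leaving out a replicate was not run. Since the depth is unknown, a missing peak says only that none was called, and the group a peak comes from (of 6) is not known. Peak width depends on the peak caller as well as on the chromatin.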

Other observations

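Most genes of the listed regulators, which include proteins known to silence germline genes, were themselves marked. Promoter peaks were found at 14 of 14 genes of PRC1.6 and its partners, all in the high CpG class. They include Mga (1324 bp), Max (1393 bp), E2f6 (1675 bp), L3mbtl2 (1111 bp) and Pcgf6 (1277 bp). Of 11 genes for DNA methylation and demethylation and for H3K9 methylation, 10 had a peak, with Dnmt1 at 1233 bp, Dnmt3a at 2382 bp, Dnmt3b at 1595 bp and Setdb1 at 1357 bp. Dnmt3l, a cofactor of the de novo methyltransferases that acts in germ cells, had none and was in the low CpG class with a ratio of 0.19. All 6 genes listed for CXXC-domain proteins or SETD1 complexes, Kdm2b among them, had a peak, up to 4026 bp at Setd1b. The genes of the PRC1.6 list and these 6 were all of the high CpG class, in which 92.9% of coding genes had a peak. Of the 11 genes, 8 were of that class, and all 8 had a peak. The other marked ones were Uhrf1, of the intermediate class, and Tet1, of the low class. The shares within the high class are near its background, so they do not set these genes apart.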
